A study of Mus musculus with 4 samples.

Results

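A set of 10 genes that mark lipid-associated, or foamy, macrophages were followed across 4 arrays of mouse abdominal aorta: Trem2, Spp1, Gpnmb, Lpl, Cd9, Cd63, Fabp5, Lgals3, Plin2 and Cd68. They were found by gene name among the probes that are not controls, and all 10 of them were present and measured, out of 37074 gene names on the array and 22497 genes tested. The tissue came from male mice aged 12 weeks whose aorta had been exposed to calcium phosphate (CaPO4), and it was collected 4 weeks after the operation. Arrays W2 and W3 are labelled wild type, and arrays K4 and K5 are labelled SR-A1-/-, a deletion of the macrophage scavenger receptor encoded by Msr1. Both groups received CaPO4, and no untreated aorta was analysed here. The allele of the deletion, the mice per array and the strain are not given in the sources used here, and the design text speaks only of 2 independent experiments, so p-values measure the spread between these 4 samples.

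Macrophages that take up modified lipoproteins or the debris of dying cells store the lipid as cholesteryl esters and triglycerides in droplets, which gives them a foamy appearance. In fat, atherosclerotic plaques and injured tissue such cells share a programme that depends on the lipid-sensing receptor TREM2 and includes secreted osteopontin (Spp1), lysosomal and tetraspanin proteins (Cd68, Cd63, Cd9), and lipid-handling proteins (Lpl, Fabp5, Plin2). Several of these genes are also strongly expressed outside macrophages, above all Lpl and Plin2 in adipocytes and Cd63 and Cd9 in most cells.

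All values are log2 processed signal relative to the array's 75th percentile, which was 132 on W2, 220 on W3, 245 on K4 and 133 on K5 in intensity units. W2 and K5 thus had a lower signal level and W3 and K4 a higher one, so each genotype label holds 1 array of each level. Between 57.6% and 62.6% of probes were well above background, no spot was saturated (0 on each array), and precision is limited by there being only 4 arrays. Defining smooth muscle genes of the labelled tissue were bright on all 4 arrays, with Acta2, smooth muscle actin, between 8.57 and 9.47. Msr1, the targeted gene, went against the labels at the probe that stood for it, 1 of 2 on the array. It read -5.30 on W2, where it was not well above background, -2.10 on W3, -1.26 on K4 and -2.09 on K5. The probe was dim, at intensities of 3.3, 51, 102 and 31. As the allele is not given, where the probe lies relative to the deletion is unknown. Every genotype difference below therefore refers to the arrays as labelled. In whole tissue, fewer cells of a type and less RNA per cell cannot be told apart.

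The proximal promoters of the 3 genes with the widest range over the arrays, Spp1, Cd68 and Trem2, are shown because these genes had the largest array-to-array differences in the set. Each sequence is the 250 bases before the annotated start, from RefSeq on GRCm38.p6, written along the gene's strand with capitals on a match to a searched motif. Of the 10 genes 8 had a promoter in that table. The search for AP-1-type sites used TGANTCA, where N is any base. The Trem2 window, chr17:48346151-48346400 on the plus strand, matched it at positions -9 to -3 from the start. The match, TGAATCA, has A at the centre, where the AP-1 consensus has C or G, so it is a match to the search pattern only.
Trem2: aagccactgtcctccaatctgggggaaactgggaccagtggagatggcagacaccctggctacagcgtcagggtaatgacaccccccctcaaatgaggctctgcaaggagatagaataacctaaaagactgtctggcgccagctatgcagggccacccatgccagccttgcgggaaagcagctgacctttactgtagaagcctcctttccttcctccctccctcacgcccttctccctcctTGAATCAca
The Cd68 window, chr11:69666171-69666420 on the minus strand, held TGAGTCA, with G at the centre, at -149 to -143 and again at -24 to -18.
Cd68: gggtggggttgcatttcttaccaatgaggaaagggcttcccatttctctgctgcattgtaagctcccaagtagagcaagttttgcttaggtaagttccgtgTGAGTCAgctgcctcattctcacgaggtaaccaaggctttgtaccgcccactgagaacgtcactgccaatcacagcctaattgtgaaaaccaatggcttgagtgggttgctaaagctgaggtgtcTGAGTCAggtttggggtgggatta
The Spp1 window, chr5:104434861-104435110 on the plus strand, held the PU.1/Ets-type motif GAGGAAGT at -113 to -106. RefSeq gives Spp1 another start, whose window, chr5:104435942-104436191, matched none of the motifs searched.
Spp1: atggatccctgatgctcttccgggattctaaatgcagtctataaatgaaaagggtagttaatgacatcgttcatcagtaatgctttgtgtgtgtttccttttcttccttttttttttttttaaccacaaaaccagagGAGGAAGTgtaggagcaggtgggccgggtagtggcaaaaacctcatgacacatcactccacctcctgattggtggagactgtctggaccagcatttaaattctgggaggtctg
Searched on both strands, TGANTCA was present in 2 of the 8 genes and in 6.75% of 32851 promoters of this length, and GAGGAAGT in 1 of the 8 and in 2.44%. The E-box CACGTG (6.02% of all promoters) and the M-box TCATGTG (3.25%) matched in 0 of the 8 genes. The repeats bound by PPAR/RXR and by LXR/RXR also matched in 0 of the 8. They are 2 copies of AGGTCA in the same orientation with 1 base (0.0335%) or 4 bases (0.0152%) between them. The motifs do not overlap each other in the printed windows, and a match is only a description of the letters.

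None of the 10 genes separated the arrays labelled SR-A1-/- from those labelled wild type. The mean of K4 and K5 was above that of W2 and W3 for 6 of them and below it for 4, with a median difference of 0.26 against -0.01 over all genes tested. limma gave each of the 10 an adjusted p of 0.99999, and 0 of them, like 0% of the 22497 genes, passed an adjusted p of 0.05. At an unadjusted p under 0.05 the count was 0 of 10, beside 6.29% of all genes (1416). Both arrays labelled SR-A1-/- lay above both labelled wild type for 16.1% of all genes and below both for 13.7%, and for 0 of the 10 genes in either direction. The smallest p that an exact two-sided permutation test can give for 2 arrays against 2 is 0.333.

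The arrays that share the wild-type label differed more than the group means did. For 6 of the 10 genes the widest gap of all was that between W2 and W3, while for Spp1 and Gpnmb it lay between W2 and K5, for Lpl between K4 and K5, and for Cd9 between W3 and K4. W3 was above W2 for all 10 genes and at least 2-fold above it for 8 of them, against 8.17% of all genes. W2 was the lowest array for 8 of the 10 (21.7% of all genes), the exceptions being Lpl, lowest on K5, and Cd9, lowest on K4. It was lowest by at least 2-fold for 4 of the 10, namely Trem2, Spp1, Lgals3 and Cd68, against 2.33% of all genes. W3 was highest for 7, K5 for Spp1 and Gpnmb, and K4 for Lpl. For all 10 genes the difference between W2 and W3 was larger than the difference between the group means, as it was for 67.3% of all genes.

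**Figure D1:**
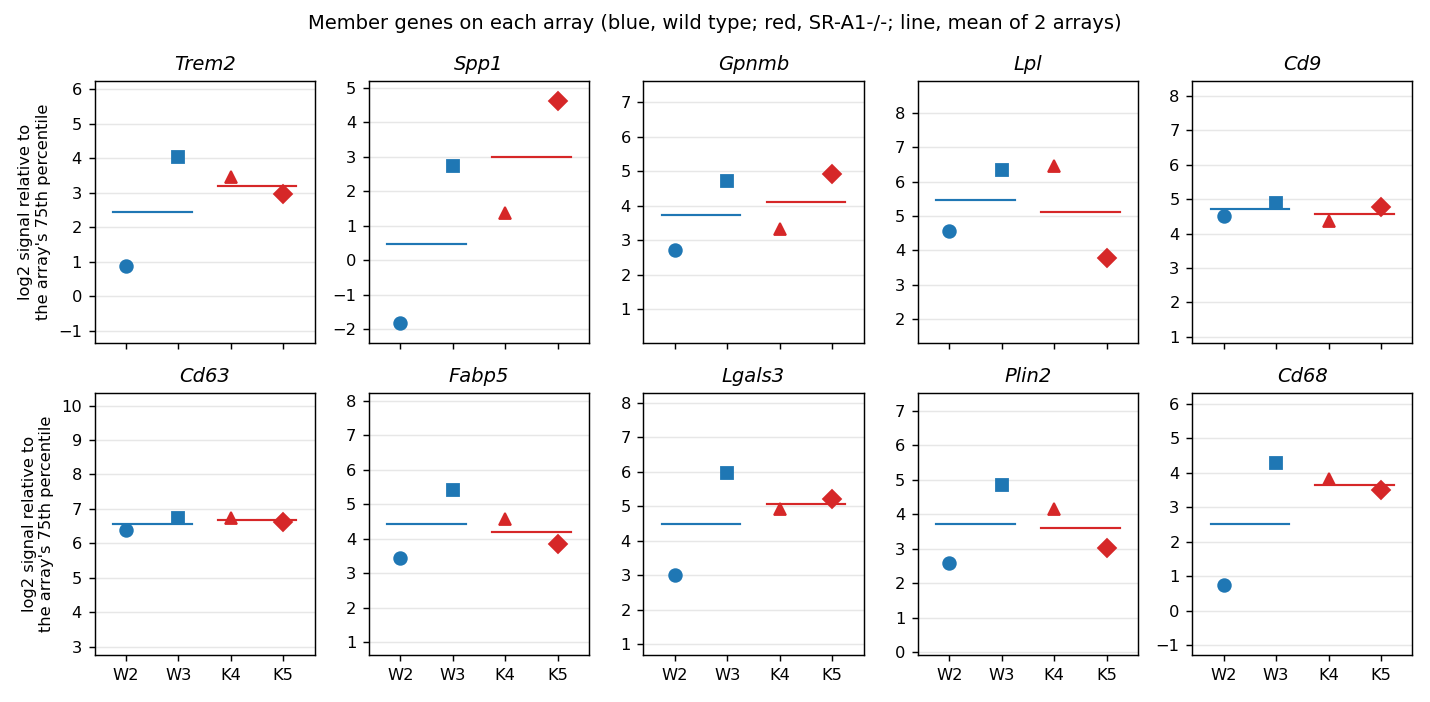
Log2 signal relative to the array's 75th percentile for each of the 10 genes on each of the 4 arrays, with the mean of each genotype label. W2 sits lowest for 8 of the genes, and for none do both arrays labelled SR-A1-/- lie above, or both below, the arrays labelled wild type.

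Trem2, the lipid-sensing surface receptor that gives the programme its name, read 0.86 on W2, 4.03 on W3, 3.45 on K4 and 2.97 on K5. W2 stood alone at the low end, while the other 3 arrays lay close together and the groups overlapped. W3 was 8.95-fold above W2, whereas K5 was below K4 by a log2 of only -0.48. The difference of SR-A1-/- minus wild type was 0.77 ± 1.05 (limma SE, n = 2 per group), with a 95% interval of -1.95 to 3.48. The only Trem2 probe lies on chromosome 17 at 48491537 to 48491596 (mm9).

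Genes that act with TREM2 in signalling shared the low readings on W2, and more of them differed by label. W2 was the lowest array for 14 of 15 such genes, all tested, and W3 was at least 2-fold above W2 for 7 of the 15. Of the 15, 8 were higher on both arrays labelled SR-A1-/-, against 16.1% of all genes, and 0 were lower on both, against 13.7%. The median difference was 0.84. An unadjusted limma p under 0.05 was found for 4 of the 15, beside 6.29% of all genes, and 0 passed after adjustment. Those with the smallest p were Pik3cd, a catalytic subunit of PI3-kinase in leukocytes, at 1.29 ± 0.32 (adjusted p = 0.519), Ms4a4a, a tetraspan membrane protein of macrophages, at 1.74 ± 0.47 (0.582), and Inpp5d, the phosphatase SHIP1, at 1.08 ± 0.30 (0.603). Inpp5d read -0.74, -0.33, 0.58 and 0.50 on W2, W3, K4 and K5, with W2 lowest, and W2 and W3 both below the other arrays. Tyrobp, the adaptor DAP12 that passes the TREM2 signal on and was picked after its values were seen, had the same order of arrays as Trem2, at 1.46 on W2, 3.66 on W3, 3.58 on K4 and 3.19 on K5. Of 5 other genes of the TREM family 4 were tested and all overlapped between the groups, with Treml2 at 0.53 ± 0.41, Trem1, an activating receptor of neutrophils and monocytes, at 0.25 ± 0.37 and Treml1 at 0.17 ± 0.41.

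Cd68, a heavily glycosylated protein of late endosomes and lysosomes used as a general macrophage stain, read 0.75 on W2, 4.28 on W3, 3.82 on K4 and 3.51 on K5. The order of the arrays was that of Trem2, with W2 below the rest, and W3 was 11.5-fold above W2. The difference between the labels was 1.15 ± 1.16 (n = 2 per group; 95% interval -1.84 to 4.13). All 3 Cd68 probes put W2 lowest, but they ordered the other arrays differently. The brightest, on chromosome 11 at 69477775 to 69477834 (mm9), gave K5 minus K4 as -0.31, and the other two, at 69478314 to 69478373 and 69478979 to 69479038, gave 0.43 and 0.41.

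Lgals3 encodes galectin-3, a lectin that binds galactosides and is secreted in quantity by activated macrophages. It read 2.99 on W2, 5.97 on W3, 4.91 on K4 and 5.20 on K5. W2 was again the low array, and W3 was 7.87-fold above it. The difference was 0.57 ± 0.99 (n = 2 per group; 95% interval -1.98 to 3.12). A second probe read 1.66, 4.64, 3.62 and 4.25 in the same array order, with a difference of 0.78. That probe was spotted 10 times on each array, and the SD over its spots was between 0.036 and 0.063 on the log2 scale, a measure of repeat spots within an array and not of the spread between samples.

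Of 9 other galectin genes listed, 7 were tested. W2 was lowest for 3 and W3 at least 2-fold above W2 for 1. Of the 7, 3 were higher and 2 lower on both arrays labelled SR-A1-/-, beside 16.1% and 13.7% of all genes. The median difference was -0.01. Lgals1, a galectin abundant in vascular and connective tissue that was also picked after its values were seen, read between 6.61 and 6.68 on all 4 arrays. The smallest p in the family were those of Lgals3bp, a secreted galectin-3 binding glycoprotein, at 0.96 ± 0.29 (adjusted p = 0.658), and of the gut galectins Lgals4 at -1.32 ± 0.56 (0.838) and Lgals6 at -1.20 ± 0.54 (0.865).

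Spp1, which encodes osteopontin, a secreted phosphoprotein that binds integrins and CD44 and calcium-containing mineral, had the widest range. It read -1.81 on W2, 2.73 on W3, 1.36 on K4 and 4.61 on K5. Each group held a low and a high array: W3 was 23.2-fold above W2, and K5 was 9.54-fold above K4. K5 was 85.8-fold above W2, the other array of the lower signal level, whereas K4 was below W3 by a log2 of -1.37. The difference of 2.53 ± 1.80 (n = 2 per group) had a 95% interval of -2.11 to 7.16, the broadest of the 10. The probe lies on chromosome 5 at 104869788 to 104869847 (mm9).

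Receptors for osteopontin went the other way in part. Of 9 listed and tested, 5 were lower on both arrays labelled SR-A1-/- (13.7% of all genes were) and 0 higher, with a median of -0.25. Itga9, an integrin subunit that binds osteopontin, read 5.51, 5.53, 4.25 and 4.37 on W2, W3, K4 and K5, a difference of -1.21 ± 0.27 (adjusted p = 0.462). Itgb3, the beta subunit of the vitronectin receptor, was at -1.18 ± 0.28 (0.488) and Itga8, a smooth muscle integrin subunit, at -0.53 ± 0.29 (0.968). Smooth muscle markers were lower as well, 7 of 10 on both arrays labelled SR-A1-/- and 0 higher, with a summed signal of 2001 on W2, 1484 on W3, 1165 on K4 and 1402 on K5, and their part in the receptor values was not tested. Of the other genes of the SIBLING family of mineral-binding phosphoproteins, to which Spp1 belongs, 2 of 4 were tested. Ibsp (bone sialoprotein) was at -2.29 ± 1.19 and Mepe at -0.25 ± 0.50. Ibsp read -1.94, -2.39, -6.27 and -2.65 on W2, W3, K4 and K5, so K4 alone stood far below the rest. That K4 value is near the floor, below the -5.30 of Msr1 on W2, which was not well above background. Neither Ibsp nor Mepe was highest on K5, where Spp1 was highest.

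Gpnmb, a transmembrane glycoprotein of melanosomes and of lysosomes under lipid load, read 2.72 on W2, 4.73 on W3, 3.33 on K4 and 4.92 on K5. Like Spp1 it was low on W2 and K4 and high on W3 and K5, so both groups held a low and a high array. W3 was 4.01-fold above W2 and K5 was 3.02-fold above K4, and the difference between labels was 0.40 ± 0.86 (n = 2 per group; 95% interval -1.82 to 2.61). Its probe lies on chromosome 6 at 49006386 to 49006445 (mm9).

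Cd63 and Cd9, tetraspanins of late endosomes, exosomes and the cell surface, hardly varied. Cd63 read 6.38, 6.74, 6.73 and 6.62 on W2, W3, K4 and K5, a difference of 0.12 ± 0.30 (n = 2 per group; 95% interval -0.65 to 0.88). Its 10 spots per array had an SD of at most 0.059. Cd9 read 4.51, 4.89, 4.37 and 4.78, a difference of -0.13 ± 0.32 (95% interval -0.97 to 0.71), and its second probe was not well above background on any array. For these genes the intervals leave out changes of 2-fold in either direction, which they do for none of the other 8. Among 21 other tetraspanin genes, all tested, 3 were higher and 3 lower on both arrays labelled SR-A1-/-, near the 16.1% and 13.7% of all genes. Their median was 0.00. The smallest p were those of Tspan32, a leukocyte tetraspanin, at 1.12 ± 0.33 (adjusted p = 0.623), Tspan2 at -0.92 ± 0.33 (0.755) and Tspan8 at -2.20 ± 0.81 (0.767).

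Lpl, lipoprotein lipase, hydrolyses triglycerides of circulating lipoproteins so that fatty acids can enter the cell. It read 4.58 on W2, 6.34 on W3, 6.45 on K4 and 3.79 on K5. Here W3 and K4 were high and W2 and K5 low, with K5 lowest: W3 was 3.40-fold above W2, and K5 was at 0.158 of K4. The difference was -0.34 ± 1.05 (n = 2 per group; 95% interval -3.06 to 2.37). Lpl had 6 tested probes, and they did not behave alike. Those on transcript NM_008509 shared the pattern of the brightest one, which lies on chromosome 8 at 71430267 to 71430326 (mm9). The probe of AK170106 gave W3 minus W2 as 0.42 and K5 minus K4 as -3.53, and that of AK154419 gave 0.23 and -3.66. The probe of ENSMUST00000101463, at 71413311 to 71413370, went the other way, with -0.74 and 0.60.

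Fabp5, a cytosolic carrier of fatty acids, and Plin2, the perilipin that coats lipid droplets in most cell types, also put W3 and K4 above W2 and K5. Fabp5 read 3.45 on W2, 5.41 on W3, 4.57 on K4 and 3.84 on K5, a difference of -0.23 ± 0.72 (n = 2 per group; 95% interval -2.08 to 1.63). Plin2 read 2.58, 4.85, 4.16 and 3.02 in the same order, a difference of -0.13 ± 0.85 (95% interval -2.33 to 2.08). For both genes W2 was lowest and W3 highest, and W3 was 3.90-fold above W2 for Fabp5 and 4.83-fold for Plin2. The second Plin2 probe had the same order of arrays, at -1.25, 0.62, -0.01 and -0.90. The probes that stood for the genes lie on chromosome 3 at 10016185 to 10016244 for Fabp5 and on chromosome 4 at 86302847 to 86302906 for Plin2 (mm9).

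**Figure D2:**
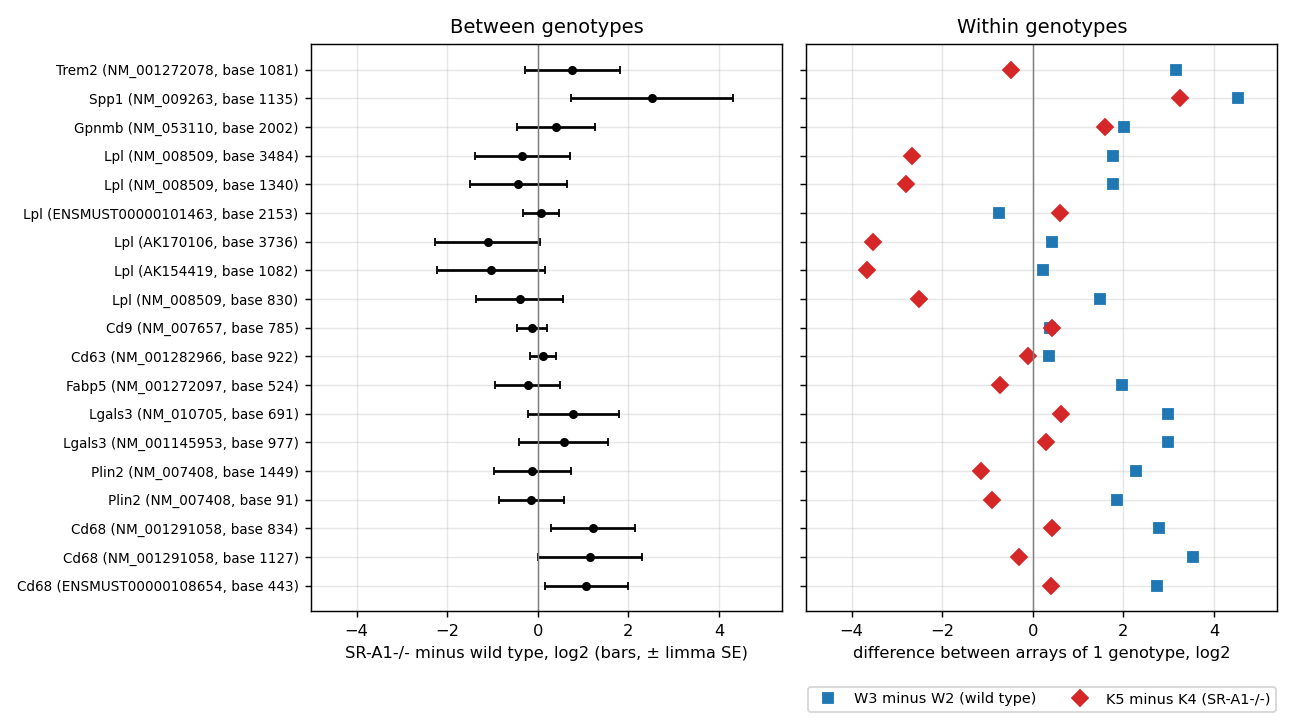
Differences at all 19 tested probes of the 10 genes, in log2. Left, SR-A1-/- minus wild type with bars of 1 limma standard error (2 arrays per label). Right, W3 minus W2 and K5 minus K4, where W3 lies above W2 at every probe but the Lpl probe of ENSMUST00000101463. That probe shows both signs turned against the other Lpl probes, but its unscaled intensity was nearly level.

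Related genes of lipid storage were low on K5 in particular. Of 18 other lipid droplet genes, all tested, 13 were lowest on K5 (27.4% of all genes were), with a median difference of -0.64. On both arrays labelled SR-A1-/- 0 were higher and 1 was lower, beside 16.1% and 13.7% of all genes. The lower one was Fitm1, which promotes droplet budding and is strongest in striated muscle, at -2.31 ± 0.81 (adjusted p = 0.733). The summed signal of 10 skeletal muscle markers was 1373 on W2, 409 on W3, 156 on K4 and 266 on K5. The single markers did not all go this way. Of the 10, 2 were higher and 6 lower on both arrays labelled SR-A1-/-, beside 16.1% and 13.7% of all genes. The part of skeletal muscle in the Fitm1 value was not tested. Cidec, which fuses droplets in white adipocytes, read 5.43, 6.14, 6.14 and -2.40 on W2, W3, K4 and K5, and Plin1, the adipocyte perilipin, 1.79, 3.56, 3.30 and -4.64. Both are also among the white adipocyte markers. Plin3, a perilipin of most cells that was picked after its values were seen, read 3.90, 4.22, 4.25 and 3.97 and so was not low on K5 in this way.

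Of 13 genes that work with lipoprotein lipase 10 were tested. The median difference was -0.15, and 0 were higher and 1 lower on both arrays labelled SR-A1-/-, beside 16.1% and 13.7% of all genes. Apoc1, an apolipoprotein that restrains lipase, read 2.99, 6.36, 4.40 and -1.11 on W2, W3, K4 and K5, and Gpihbp1, which anchors the lipase to capillary endothelium, 1.82, 2.86, 2.45 and 1.23. Lrp1, a large endocytic receptor for remnants, read 5.04, 4.59, 4.72 and 5.45 and was thus highest on K5. In the family of fatty acid binding proteins 4 of 8 other genes were tested and all 4 were lowest on K5, as 27.4% of all genes were. Fabp7 was at -1.70 ± 0.82, Fabp12 at -0.79 ± 0.48 and Fabp3, the muscle form, at -1.23 ± 0.76. Fabp12 was dim throughout, at -4.70, -4.04, -4.63 and -5.69 on W2, W3, K4 and K5, and its K5 value is near the floor.

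Most adipocyte markers, like Lpl, Fabp5 and Plin2, were higher on both W3 and K4 than on W2 and K5. This order held for 6 of 7 brown adipocyte markers and 9 of 10 white ones, and for 27% of all genes. It also held for 6 of the 10 genes, namely Lpl, Fabp5, Plin2, Trem2, Cd63 and Cd68. For Cd68 it held only at the brightest probe, and for Lpl at all probes but that of ENSMUST00000101463. Among the brown markers Dio2, a thyroid hormone deiodinase, was the exception, at -0.12, 0.83, -0.91 and -0.91 on W2, W3, K4 and K5, and Cox7a1, a mitochondrial subunit, was nearly level on W2 and K4, at 4.21 and 4.29. The summed signal of 10 white adipocyte markers, relative to the 75th percentile, was 411 on W2, 724 on W3, 655 on K4 and 37.8 on K5, and 9 of the 10 were lowest on K5. That of 7 brown adipocyte markers was 22.7 on W2, 351 on W3, 115 on K4 and 4.77 on K5, a sum in which Ucp1 and Cidea weigh most on W3 and K4. The defining genes, chosen after their values were seen, were Adipoq (adiponectin) at 4.50, 5.24, 5.36 and -2.93 and Ucp1 (the uncoupling protein of brown fat) at -6.30, 7.09, 5.31 and -6.62. Lpl, Fabp5 and Plin2, like Trem2, Cd63 and Cd68, were thus higher on the arrays where Ucp1 was high than on those where it was low. The arrays with high Ucp1, W3 and K4, are also those of the higher signal level, so these cannot be told apart. Fabp5 and Plin2 were higher on K5 than on W2, whereas Adipoq was far lower there. How far adipocytes contribute to the signal of Lpl, Fabp5 and Plin2 was not tested.

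**Figure D3:**
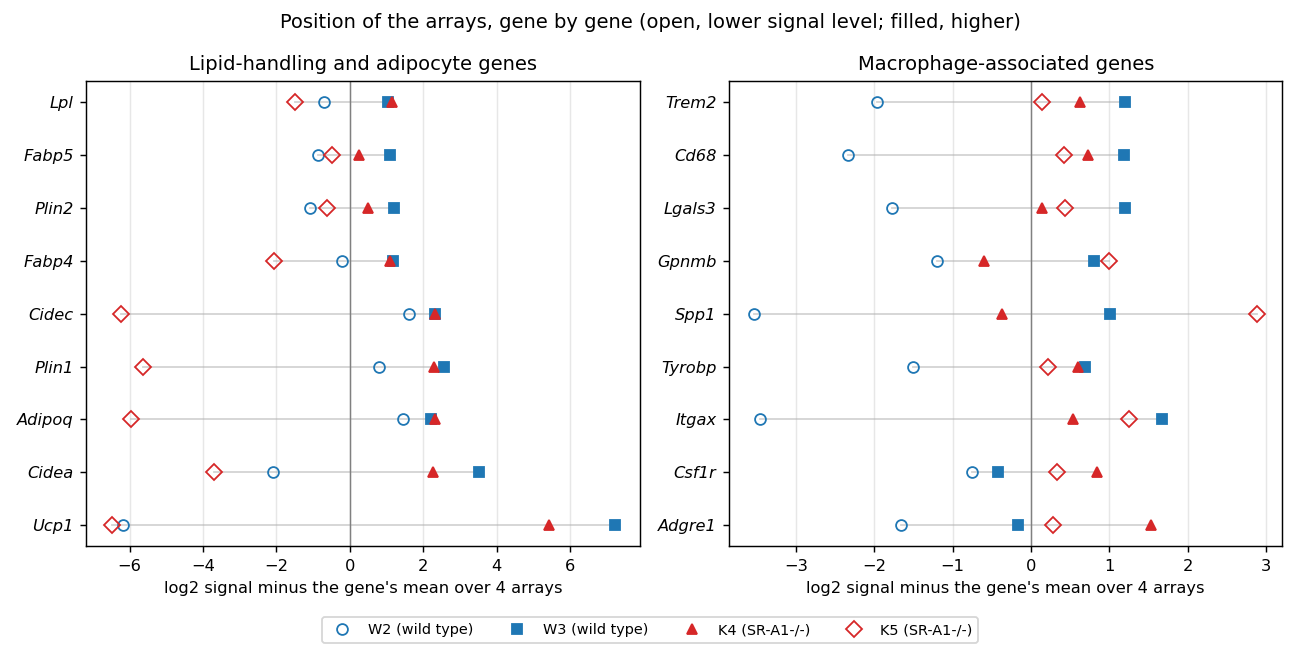
Log2 signal of 18 genes on each array minus the gene's mean over the 4 arrays; W2 and K5 have the lower signal level and W3 and K4 the higher. Left, Lpl, Fabp5 and Plin2 put W3 and K4 above W2 and K5, as do Cidea and Ucp1, while Adipoq, Cidec and Plin1 are far lower on K5 than on the rest. Right, all genes shown are lowest on W2, and Csf1r and Adgre1 are also higher on both arrays labelled SR-A1-/-.

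Another 22 genes of the lipid-associated macrophage programme, of which 21 were tested, had the same low array as the 10. W2 was lowest for 17 of the 21, and W3 was at least 2-fold above W2 for 12, against 8.17% of all genes. Itgax, the integrin CD11c of macrophages and dendritic cells, read -1.48, 3.65, 2.53 and 3.24 on W2, W3, K4 and K5, and Mmp12, macrophage elastase, -1.80, 2.66, 0.76 and 1.64; both were picked after their values were seen. Between the labels 4 were higher and 0 lower on both arrays labelled SR-A1-/-, beside 16.1% and 13.7% of all genes, with a median of 0.21. The smallest p belonged to Abca1, the cholesterol exporter, at 0.96 ± 0.28 (adjusted p = 0.618), Slamf9, a myeloid surface receptor, at 1.05 ± 0.31 (0.630) and Npc2, which carries cholesterol out of lysosomes, at 0.42 ± 0.29 (0.99999). Abca1 read 1.69, 1.55, 2.61 and 2.55, so its groups did not overlap and W2 was not apart.

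General lysosomal genes and the MiT/TFE factors that drive them varied less than the 10. All 20 were tested, W3 was at least 2-fold above W2 for 3, and the medians of W3 minus W2 and of the difference between labels were 0.11 and 0.23. Of the 20, 7 were higher and 0 lower on both arrays labelled SR-A1-/-, beside 16.1% and 13.7% of all genes.

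Markers of macrophages as a whole followed the foamy genes in part. Csf1r, the receptor for macrophage colony-stimulating factor, read 3.89, 4.23, 5.49 and 4.98 on W2, W3, K4 and K5, a difference of 1.18 ± 0.33 (adjusted p = 0.610), and Adgre1, a surface receptor used to stain mouse macrophages, 0.11, 1.61, 3.30 and 2.06, a difference of 1.82 ± 0.68 (0.767). Neither overlapped between the labels, unlike the 10 genes. From W2 to W3 Csf1r differed 1.26-fold, beside 8.95-fold for Trem2, but W2 was the lowest array for 7 of 11 tested pan-macrophage markers and W3 was at least 2-fold above it for 4, namely Mpeg1, a perforin-like protein, by a log2 of 3.29, Lyz2 (lysozyme) by 2.61, Cd14 by 1.68, and Adgre1. The first 3 of these are named after their values were seen. Of these 11 markers 5 were higher and 1 lower on both arrays labelled SR-A1-/-, beside 16.1% and 13.7% of all genes. Their median was 1.08, and the smallest p were those of C1qa at 1.74 ± 0.28 (0.272), Fcgr1 at 1.87 ± 0.47 (0.525) and Csf1r. Over 9 markers of resident-type macrophages 6 were higher and 1 lower, with a median of 1.17, led by the haemoglobin scavenger receptor Cd163 at 2.83 ± 0.45 (0.272), F13a1, a transglutaminase, at 1.68 ± 0.37 (0.453) and Folr2, a folate receptor, which read 0.75, 0.09, 2.99 and 1.85 (0.525), and the median of W3 minus W2 was -0.34. The summed signal of the pan-macrophage markers was 173 on W2, 342 on W3, 272 on K4 and 281 on K5. That of the resident-type markers was 269, 204, 234 and 252. Lyz2 and Itgam make up most of the first sum, and Cbr2 and Gas6 most of the second. Relative to each gene's mean over the 4 arrays, the pan-macrophage medians on W2, W3, K4 and K5 were -0.91, -0.16, 0.57 and 0.34. The resident-type medians were -0.55, -0.49, 1.12 and 0.33, an order that the sums do not show. Whether the low foamy genes on W2 reflect fewer macrophages or another state of them was not tested.

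Osteoclast genes share some members with the programme, Acp5 and Atp6v0d2. Of 10 listed 8 were tested, and 2 were higher and 1 lower on both arrays labelled SR-A1-/-, beside 16.1% and 13.7% of all genes. Their summed signal was 58.3 on W2, 130 on W3, 94.2 on K4 and 113 on K5. Dcstamp, a fusion protein of osteoclasts and giant cells, read -5.93 on W2 against -0.15, 0.44 and 0.32 on W3, K4 and K5. The W2 value is near the floor, below the -5.30 of Msr1 there, which was not well above background. Mmp9, gelatinase B, was at -0.88 ± 0.27 (adjusted p = 0.666) and Ocstamp at 0.72 ± 0.47 (0.99999). The 9 tested osteochondrogenic markers had summed signals of 8.19, 7.46, 7.94 and 14.3, highest on K5, as Spp1 was. Col2a1, a cartilage collagen, weighed most in these sums, at 2.61, 2.37, 2.74 and 3.43. Single markers differed: Acan, Sox9 and Runx2 were also highest on K5, while Alpl and Bglap were lowest there. Ibsp, Bglap2 and Sp7 were highest on W2 or W3. These genes are named after their values were seen. The part of the osteochondrogenic markers in the Spp1 value was not tested.

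Setting arrays of the same signal level against each other gave opposite directions for all 10 genes. K5 was above W2 for 9 of the 10 genes (47.2% of all genes), at least 2-fold for 5 of them (6.44% of all genes), with a median of 1.27 and Lpl, at -0.79, as the exception. K4 was below W3 for 9 of the 10 (49.3% of all genes), at least 2-fold for 3 of them (4.93% of all genes), with a median of -0.63 and Lpl, at 0.11, as the exception, although for Cd63 the values were 6.73 and 6.74. The TREM2 signalling genes were higher in both settings, with medians of 1.32 and 0.39, and so were the resident-type macrophage markers, with 0.90 and 1.44.

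**Figure D4:**
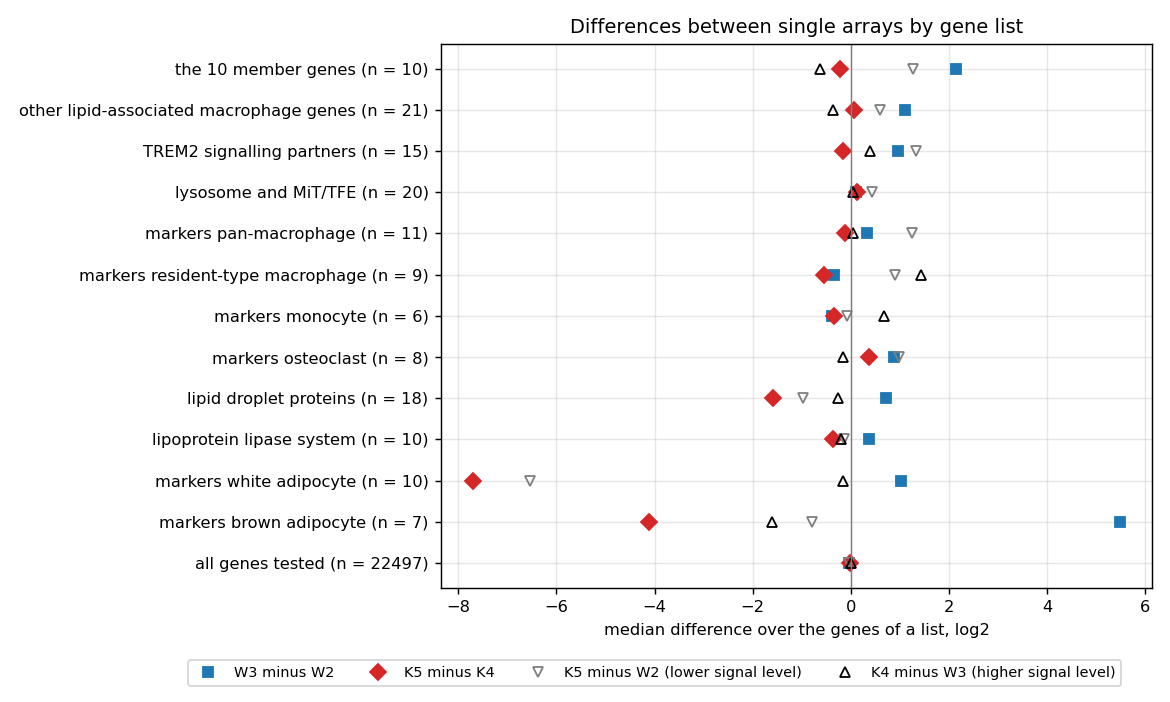
Median log2 difference over the tested genes of each list between single arrays: W3 minus W2, K5 minus K4, and the comparisons within the lower (K5 minus W2) and higher (K4 minus W3) signal level. The 10 genes stand at 2.14, -0.21, 1.27 and -0.63, while white and brown adipocyte markers reach -7.69 and -4.12 for K5 minus K4.

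The sign of the difference between labels depended on single arrays for 9 of the 10 genes, Spp1 being positive whichever array was left out. It turned for 5 genes without W2 (Trem2, Gpnmb, Cd63, Lgals3, Cd68), for 4 without W3 (Lpl, Cd9, Fabp5, Plin2), for Cd9 without K4 and for 4 without K5 (Gpnmb, Lpl, Fabp5, Plin2). Without W3 limma called 2 of the 10 genes, Trem2 at 2.35 (adjusted p = 0.0466) and Cd68 at 2.91 (0.0174), beside 1.65% of all genes. Without W2 it called 0 of the 10, beside 1.16% of all genes, and Trem2 was at -0.82 and Cd68 at -0.62. These fits assume that the array left alone varies like the other group. With 1 array left out, 3 arrays often do not overlap by label: for 70.3% of all genes and 7 of the 10 without W2, for 62.5% and 8 of the 10 without W3, for 66.5% and 3 of the 10 without K4, and for 60.3% and 2 of the 10 without K5.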

How the data were processed

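Total RNA of each sample was hybridised to a one-colour (Cy3) Agilent mouse array of 62976 spots, of which 59305 are not controls and stand for 56605 probes. Per the file headers, Agilent Feature Extraction (12.0.3.1) produced the deposited processed signal, an intensity from which background was subtracted and spatial trends removed within each array, with no normalisation across arrays. For this program the submitters' processing notes give version 10.7, and they also list limma without saying what it did. Mean spot signal and local background are raw intensity values, and the quality flags are 0 or 1, per the file headers. The authors' deposited values are log2, with near-equal medians per array (4.32 to 4.33), and their centring and scaling are not stated. Probe positions are on mm9, as the deposited files give them.

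Each processed signal was divided by the 75th percentile of the non-control probes of its array and converted to log2. Spots flagged as outliers were dropped, spots of a probe averaged, and probes kept that were well above background on at least 2 of 4 arrays. The brightest kept probe stood for a gene name. This gave 22497 genes. The labels were compared in limma 3.58.1 (lmFit, eBayes; R 4.3.3, data.table, version 1.17.8), two-sided, with Benjamini-Hochberg adjustment over all genes. Summed signals of a list are sums of linear signal over the 75th percentile. Python 3.11.15 and matplotlib 3.10.9 made the figures. The procedure was tested on simulated data.

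The 10 genes and the 23 other lists were chosen with earlier results of these data known. Named are the 10 genes, Msr1, Csf1r, Adgre1 and, of the lists described, the 3 genes with the smallest p. For the lysosomal list those genes are not reported here. Other genes are said to be picked after their values were seen, weigh most in a summed signal, or define a cell type or the tissue. For marker lists given only as context, counts and summed signals are reported. Alternatives were quantile normalisation, median scaling, normexp with an offset of 50, other filters, no removal of outlier spots, averaging over the probes of a gene, a variance trend with intensity, the deposited table, signal level as a block or split, and each array left out. Promoters came from RefSeq tables on GRCm38.p6, used for sequence only.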

Additional observations from a re-analysis of the deposited data

How the results depend on the processing

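No paired analysis was possible because the replicate numbers of the labels differ between the groups. The block used below joins arrays of like signal level, a property of the arrays and not a pairing of animals, and with it the adjusted p of the 10 genes lay between 0.687 and 0.929. With all 4 arrays, no alternative called any of the 10 genes or separated its groups, and the median difference over them stayed between 0.21 and 0.32, against 0.26. The count of genes called in all, 0 (1416 at an unadjusted limma p under 0.05), was 8 with quantile normalisation, 7 with median scaling, 22 with normexp, 8 without a filter, 5 with an intensity trend and 8 with the deposited table. It was 0 with signal level as a block, with probes averaged per gene, with outlier spots retained, and with probes required above background on every array. Leaving out 1 array gave 0 to 371 calls (260 without W2, 371 without W3), 2 to 8 of the 10 genes not overlapping, and a median over the 10 of -0.72 to 1.21. The ranges with 1 array left out were -0.82 to 2.35 for Trem2, 0.26 to 4.80 for Spp1, -0.60 to 1.40 for Gpnmb, -1.67 to 0.99 for Lpl, -0.34 to 0.080 for Cd9, -0.061 to 0.30 for Cd63, -1.21 to 0.76 for Fabp5, -0.92 to 2.06 for Lgals3, -1.26 to 1.01 for Plin2 and -0.62 to 2.91 for Cd68. Within the lower signal level the median was 1.27, and the sign turned for Cd9 (0.27), Fabp5 (0.39) and Plin2 (0.44). Within the higher level the median was -0.63, and the sign turned for Trem2 (-0.58), Spp1 (-1.37), Gpnmb (-1.40), Lpl (0.11), Cd63 (-0.0044), Lgals3 (-1.06) and Cd68 (-0.46). The cause of these turns was not tested. With 2 arrays per label, changes of the size seen between W2 and W3 cannot be told from the spread.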
